A study of Mus musculus with 3 samples.

Results

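The genes described here are 8 genes of hepatic glucose production: the enzymes Pck1, Pck2, Fbp1 and G6pc, the transporter Slc37a4, the coactivators Ppargc1a and Crtc2, and the transcription factor Creb1. They were chosen by symbol from the 49492 entries of each table, and all 8 passed the filter on low values (at least 1 CPM, counts per 1000000 counts of the library after scaling, in 1 of the 3 libraries), as did 14591 entries in all. RNA was sequenced from whole liver of CD-1 mice, an outbred strain, given ZnO nanoparticles orally with a syringe (25 mg/kg b.w. daily) over 8 or 12 weeks. PBS replaced the suspension in control mice, whose time of sampling is not stated. Sex, age, feeding state and hour of collection of the animals are not stated in the labels, nor is the number of animals per library. Each group is 1 library, which leaves the spread between animals unmeasured, and no test across animals was possible.

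In fasting, the liver makes glucose from lactate, amino acids and glycerol. Pck1 turns oxaloacetate into phosphoenolpyruvate, Fbp1 removes a phosphate from fructose bisphosphate, and G6pc frees glucose from its phosphate inside the endoplasmic reticulum, where Slc37a4 delivers that substrate. Glucagon acts through cAMP on the factor CREB1 and its coactivator CRTC2, which switch on Pck1, G6pc and Ppargc1a. The product of Ppargc1a, PGC-1alpha, assists FOXO1 and HNF4A at the same genes, and insulin opposes this program.

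The enzymes and their regulators did not move as a block. Ppargc1a stood at 15.4 CPM in control liver, 53.4 after 8 weeks and 30.2 after 12 weeks, a 3.47-fold and a 1.96-fold ratio to the control, while Creb1 differed by no more than counting error. Pck1 and G6pc were within 1.06-fold of the control at 8 weeks and lower than it at 12 weeks (0.784-fold and 0.609-fold). Fbp1 was higher at 8 weeks (1.28-fold), Slc37a4 was higher at both times (1.45-fold and 1.29-fold), and Crtc2 was lower at both (0.732-fold and 0.769-fold). Only Ppargc1a at 8 weeks passed the 2-fold rule used below.

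The promoters of Pck1, G6pc and Ppargc1a are shown because these 3 genes are textbook targets of the CREB1 and FOXO1 arms and had unlike ratios here. Sequences are from RefSeq (GRCm38.p6), 5′ to 3′ on the gene's strand, and end before the first exon of the deposited gene model. Windows were found for 7 of the 8 genes. Capitals mark matches to CGTCA (the core of the cAMP response element) or TGTTTTG (a forkhead-type insulin response core), searched on both strands.
Pck1: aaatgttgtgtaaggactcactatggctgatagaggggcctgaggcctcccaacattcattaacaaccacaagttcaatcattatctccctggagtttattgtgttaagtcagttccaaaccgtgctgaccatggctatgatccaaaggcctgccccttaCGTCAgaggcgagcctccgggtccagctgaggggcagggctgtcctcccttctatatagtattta
G6pc: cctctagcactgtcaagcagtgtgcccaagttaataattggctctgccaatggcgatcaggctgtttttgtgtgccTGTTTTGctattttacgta
Ppargc1a: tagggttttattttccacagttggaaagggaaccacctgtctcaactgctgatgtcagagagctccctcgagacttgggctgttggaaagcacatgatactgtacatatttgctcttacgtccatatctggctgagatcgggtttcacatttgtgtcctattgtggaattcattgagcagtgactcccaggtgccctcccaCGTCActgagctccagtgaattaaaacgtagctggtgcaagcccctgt
These stretches lie at chr2:173152823-173153047 (plus strand), chr11:101367466-101367560 (plus strand) and chr5:51567727-51567975 (minus strand).

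Within the 250 bases before the RefSeq start, CGTCA was found once each for Pck1 (positions -90 to -86) and Ppargc1a (-49 to -45), and not for G6pc, Fbp1, Pck2 or Creb1. Slc37a4 has 3 annotated starts, of which 1 window held it once, 1 held it in 2 places and 1 lacked it; the first pair of windows overlap and share 1 of these sites. Of all 32851 promoter windows of that length, 17.8% held CGTCA. The full palindrome TGACGTCA, found in 1.55% of windows, was in none of the windows of these genes. TGTTTTG was found for G6pc (-174 to -168) and Pck2 (-159 to -153), against 5.56% of all windows. Positions count from the RefSeq start, which for G6pc lies 155 bases downstream of the start of the deposited model. The forkhead form TGTTTAC (3.17% of windows) was in no member's window, and CAAAGNNCA, a core bound by HNF4-type receptors (5.49%), was found for G6pc alone (-72 to -64, inside the first exon of the deposited model and past the end of the stretch printed). A match describes letters only and shows neither binding nor use. Only these exact letters were searched, so the lack of a match does not show that such an element is absent.

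Pck1, the cytosolic phosphoenolpyruvate carboxykinase (chr2:173153048-173159273, plus strand), had counts of 25082 (control), 27954 (8 weeks) and 19194 (12 weeks), or 1848, 1950 and 1450 CPM. Its 12-week library was the low one. The log2 ratio of CPM + 1 to the control was 0.08 at 8 weeks (exact 95% interval of the count ratio 0.05 to 0.10) and -0.35 at 12 weeks (-0.38 to -0.32). Intervals here cover counting error only, not the spread between animals. Of all genes that passed the filter, 40.2% had a ratio at least as high at 8 weeks and 15.8% one at least as low at 12 weeks.

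Pck2, the mitochondrial form of the same enzyme (chr14:55540266-55550017, plus strand), had 20, 26 and 19 counts in the control, 8-week and 12-week libraries. The log2 ratios of 0.19 at 8 weeks and -0.02 at 12 weeks have intervals of -0.60 to 1.22 and -1.02 to 0.94. Both intervals include 0, so no change of Pck2 beyond counting error was seen at this depth. They are wide enough to hold a 2-fold rise at 8 weeks and a 2-fold fall at 12 weeks.

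Fbp1, the bisphosphatase that works against phosphofructokinase (chr13:62864753-62888282, minus strand), had 1339, 1708 and 1305 CPM. Here the 8-week library was the high one, with a log2 ratio of 0.35 (0.32 to 0.38), and the 12-week library stood at -0.04 (-0.07 to -0.01). At least as high a ratio was seen in 19.5% of all genes at 8 weeks.

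G6pc, the catalytic subunit of glucose phosphatase (chr11:101367561-101377903, plus strand), had 8339, 9291 and 4953 counts, or 614, 648 and 374 CPM. As for Pck1, the control and 8-week values were close (log2 ratio 0.08, interval 0.03 to 0.12) and the 12-week value was lower (-0.71, interval -0.77 to -0.67). Among all genes, 3.65% were at least as low at 12 weeks. Slc37a4, its transporter (chr9:44396852-44402968, plus strand), had 79.4, 114.7 and 102.6 CPM, with both treated libraries above the control. Its log2 ratios were 0.53 (0.42 to 0.64) and 0.37 (0.26 to 0.49).

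Ppargc1a (chr5:51454250-51567726, minus strand) had counts of 209 (control), 766 (8 weeks) and 400 (12 weeks). All 3 counting intervals were apart: 13.4 to 17.6 CPM, 49.7 to 57.4 and 27.3 to 33.3. The log2 ratio was 1.73 at 8 weeks (1.57 to 2.02) and 0.93 at 12 weeks (0.73 to 1.22). At 8 weeks 1.22% of all genes had a ratio at least as high, and at 12 weeks 3.73%.

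Crtc2, the cAMP-regulated coactivator (chr3:90254163-90264125, plus strand), had 86.3, 63.1 and 66.3 CPM, with both treated libraries below the control. The log2 ratios were -0.45 (-0.58 to -0.32) and -0.38 (-0.51 to -0.25). Creb1 (chr1:64532645-64604548, plus strand) had 637, 669 and 658 counts, or 46.9, 46.7 and 49.7 CPM. Its log2 ratios of -0.01 (-0.17 to 0.15) and 0.08 (-0.08 to 0.24) both have intervals that include 0, and the sign at 8 weeks turned positive under 4 other library scalings (0.004 to 0.017).

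**Figure D1:**
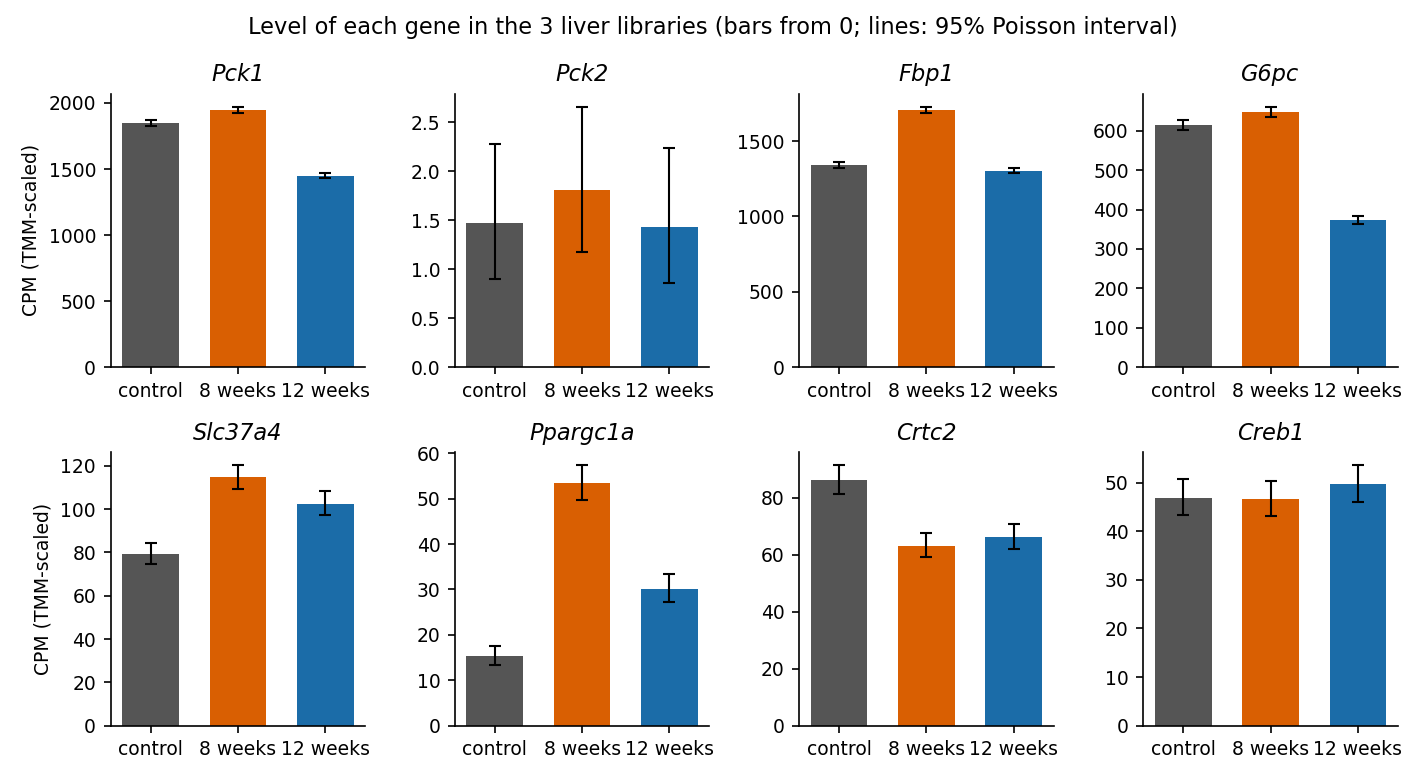
Bars give the CPM of each gene in the control, 8-week and 12-week libraries, each axis from 0, with 95% Poisson intervals of the count. Ppargc1a is at 15.4, 53.4 and 30.2 CPM, and the 12-week library is the lowest of the 3 for Pck1 (1450 CPM) and G6pc (374 CPM).

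The 3 comparisons were then read against all genes. For 8 weeks against control, 1 of 8 members (Ppargc1a) was at least 2-fold higher and 0 were lower, where 4.15% and 2.12% of all genes were (6.27% in either direction). The median log2 ratio of the 8 was 0.13, against -0.02 over all genes. For 12 weeks against control, 0 were higher and 0 lower (background 3.13% and 1.34%, or 4.48% in either direction), with a median of -0.03 against -0.01 over all genes. Counts this small among 8 genes do not set the group apart from the background. Pck1, G6pc and Fbp1 had counting intervals above 0 at 8 weeks and below 0 at 12 weeks, and 2.24% of all genes had intervals on opposite sides of 0; for Fbp1 this ended with totals without the 100 most abundant genes (interval -0.035 to 0.026 at 12 weeks).

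For 12 weeks against 8 weeks, 0 members were called in either direction (background 1.28% higher and 1.23% lower, 2.51% in all), and the median was -0.30 against 0.00 over all genes. Counting intervals lay below 0 for 5 of 8 members and for 19.1% of all genes. Such intervals narrow with the count, so abundant genes leave 0 outside at small shifts, and nothing is read from the 5 as a group. These were Ppargc1a (-0.80, interval -1.001 to -0.646), G6pc (-0.79, -0.84 to -0.74), Pck1 (-0.43, -0.45 to -0.40), Fbp1 (-0.39, -0.42 to -0.36) and Slc37a4 (-0.16, -0.27 to -0.06). At least as low a ratio was seen in 2.12% of all genes for Ppargc1a and 2.22% for G6pc. Crtc2 and Creb1 stood at 0.07 and 0.09 with intervals that include 0, and Pck2 at -0.21 (-1.27 to 0.57).

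**Figure D2:**
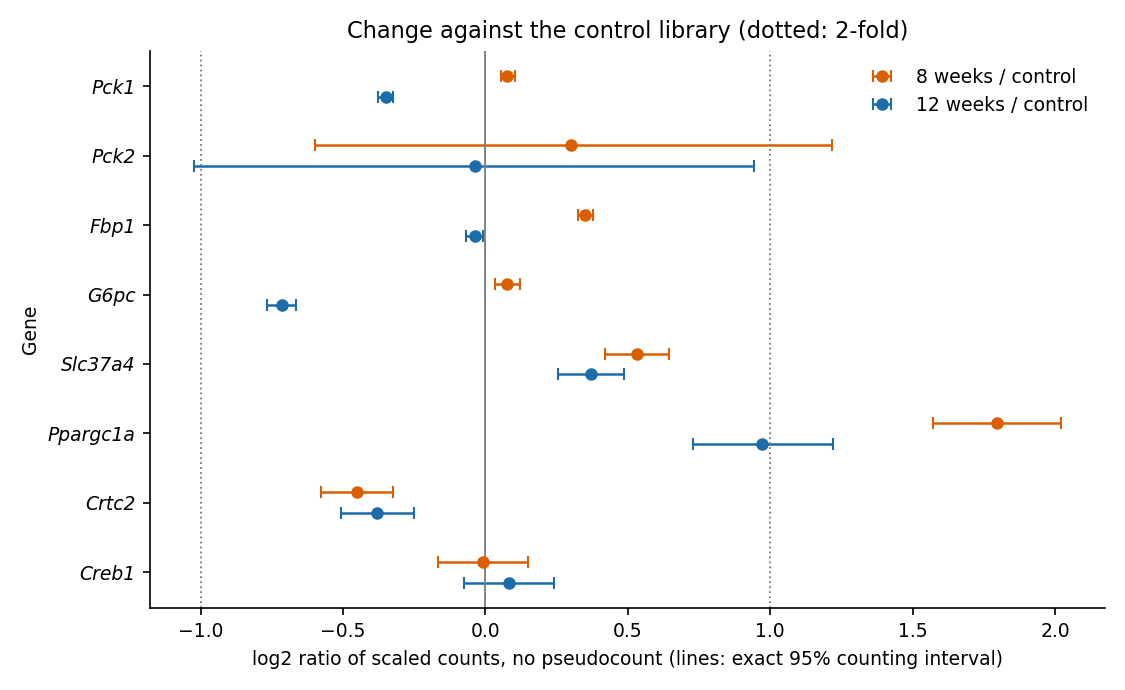
Points give the log2 ratio of scaled counts to the control, without an added count, at 8 weeks and at 12 weeks, with exact 95% counting intervals, and dotted lines mark 2-fold. Ppargc1a at 8 weeks (1.80) lies beyond the 2-fold line, G6pc at 12 weeks (-0.72) does not reach it, and the wide Pck2 intervals rest on 19 to 26 counts.

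Levels were compared between genes per kilobase of annotated exon. In the control, Fbp1 led with 787 CPM per kb, followed by Pck1 (539), G6pc (255), Slc37a4 (27.8), Crtc2 (21.1), Creb1 (3.42), Ppargc1a (2.34) and Pck2 (0.433). No neighbours in that order had overlapping counting intervals, in any of the 3 libraries. At 8 and 12 weeks the order was the same except that Ppargc1a (8.11 and 4.58 CPM per kb) stood above Creb1 (3.40 and 3.62). That exchange depends on the length used. The deposited length of Creb1, 13742 bases, is the union of all its exons, and with its principal transcript of 5009 bases Creb1 stood above Ppargc1a in all 3 libraries (9.37, 9.32 and 9.92 against 2.38, 8.27 and 4.67 CPM per kb). The other 6 ranks did not change. Together the 8 genes took 0.402% of all counts in control liver, 0.461% after 8 weeks and 0.337% after 12 weeks.

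Ratios of 2 genes within a library do not depend on how libraries are scaled, and their pairs were chosen after values had been seen. The size of such a ratio depends on the lengths used, its change between libraries does not. Pck1 and Fbp1 were set against glycolytic enzymes that work in the opposite direction, per length. Pck1 exceeded the liver pyruvate kinase Pklr 35.3-fold, 8.39-fold and 9.65-fold, a log2 change of -2.07 (-2.20 to -1.95) and -1.87 (-2.00 to -1.74) against the control (intervals of counting error only). Most of the change in the Pck1 ratio was on the Pklr side, which went from 49.4 to 219 and 142 CPM. Fbp1 exceeded phosphofructokinase Pfkl 153-fold, 167-fold and 134-fold, with intervals of the change that include 0 at both times against the control (-0.09 to 0.35 and -0.42 to 0.04). Between 8 and 12 weeks that ratio differed by -0.32 on the log2 scale (-0.53 to -0.10).

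The members also shifted against each other. G6pc per Slc37a4, its partner in the same reaction, was 9.16 in control liver, 6.68 after 8 weeks and 4.31 after 12 weeks, a log2 change of -0.46 (-0.57 to -0.34) and -1.09 (-1.21 to -0.96). Pck1 per G6pc was 2.12 in the control and at 8 weeks and 2.73 at 12 weeks. Fbp1 per Pck1 was 1.46, 1.76 and 1.81. Against Creb1, Ppargc1a was 0.684, 2.39 and 1.27 with the exon-union lengths, a log2 change of 1.80 (1.53 to 2.07) and 0.89 (0.60 to 1.18) that no choice of length alters.

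**Figure D3:**
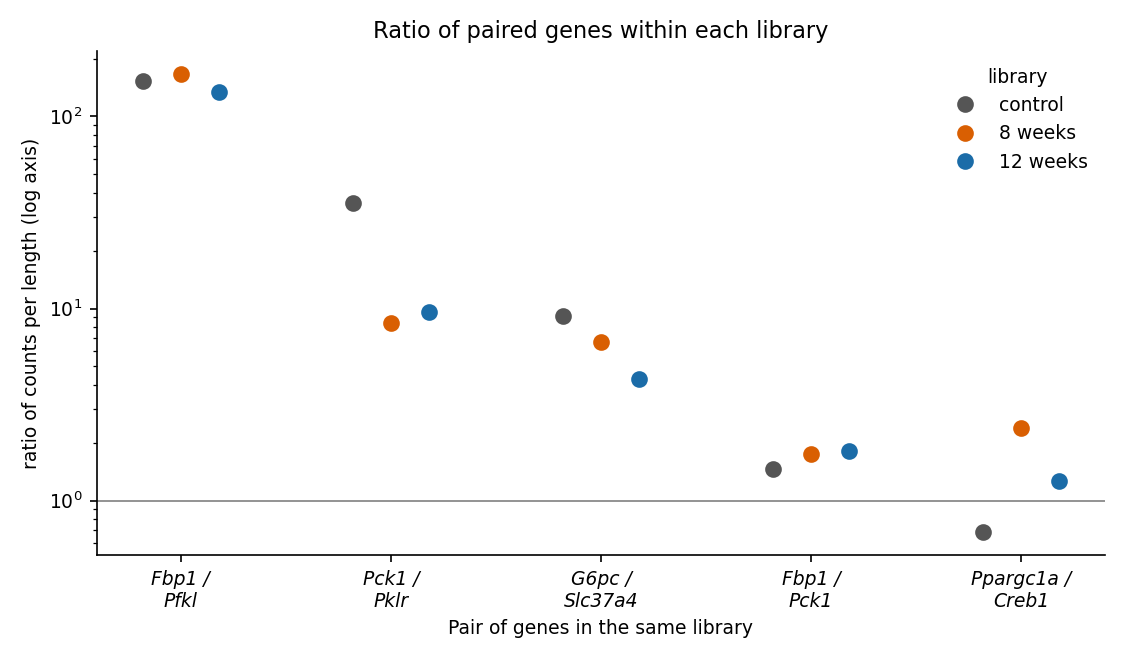
Points give the ratio of counts per length of 2 genes in the same library on a log axis, for the control, 8-week and 12-week libraries, and the grey line marks equal levels. G6pc against Slc37a4 is lowest at 12 weeks (4.31), Pck1 against Pklr is low in both treated libraries (8.39 and 9.65, against 35.3), and Fbp1 against Pfkl lies between 134 and 167.

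The other genes of the pathway were read from fixed lists. Of 16 other gluconeogenic and shared glycolytic enzymes 14 passed the filter, with 1 higher and 0 lower at either time and medians of 0.26 and 0.13. The 1 was the aspartate aminotransferase Got1, at 41.2, 87.3 and 115.6 CPM. Pyruvate carboxylase Pcx, the entry step, had log2 ratios of 0.26 and -0.10, and the glucose transporter Slc2a2 0.96 and 0.33. Among 15 genes of substrate supply, 0 were higher and 1 was lower at 8 weeks, the lactate carrier Slc16a1 (-1.33), and none was called at 12 weeks (Slc16a1 -0.90). Medians there were 0.08 and 0.02.

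Upstream, 21 genes of glucagon, cAMP and CRTC control had 0 calls at 8 weeks and 1 higher at 12 weeks (medians 0.02 and -0.08). That gene was Crem, a cAMP-responsive relative of Creb1, at 27.5, 27.8 and 57.5 CPM. The glucagon receptor Gcgr had log2 ratios of -0.42 and -0.61. Of 24 transcription factors and cofactors, 1 was higher and 1 lower at 8 weeks, and 1 higher and 2 lower at 12 weeks (medians 0.17 and 0.01). Onecut1 was the higher one at both times (2.31 and 2.40). Nr4a1, an immediate cAMP target, was lower at both (94, 40 and 39 counts, log2 ratios -1.06 and -1.01), and the repressor Nr0b2 was lower at 12 weeks (-1.06). Foxo1, which PGC-1alpha assists at G6pc, had 0.70 and 0.84, and Hnf4a 0.06 and 0.48; neither reached 2-fold.

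Readouts of these arms were mixed. Of 13 cAMP-induced genes, 1 was higher (Per1, 1.17) and 1 lower (Nr4a1) at 8 weeks, and 2 were higher (Crem and Rgs2, the latter on 11 and 37 counts) and 1 lower (Nr4a1) at 12 weeks (medians 0.25 and -0.05). Lists share genes, so their counts are not independent. Per1 is also on the core clock list read below. Of 12 FOXO1-induced, insulin-suppressed genes, 0 were higher and 1 was lower at 8 weeks, the growth arrest gene Gadd45a (-1.42), and 0 were called at 12 weeks (medians -0.06 and 0.03). Beside the Ppargc1a values, a list of 16 mitochondrial and related genes that PGC-1alpha drives had 0 calls at either time (medians 0.06 and -0.16). It includes the transcription factors Esrra, Nrf1 and Gabpa. Its range was -0.47 to 0.54 at 8 weeks and -0.66 to 0.26 at 12 weeks. Of the 13 glycolytic enzymes and regulators of the opposing direction that passed the filter, 4 were higher and 0 lower at each time (medians 0.30 and 0.58). Pklr, the regulator Pfkfb3 (1.69 and 1.06) and Pkm (1.26 and 1.05) were called at both. Hexokinase Hk2 was called at 8 weeks on 4 and 35 counts, and Hk1 at 12 weeks (1.06) on 26 and 67. The part of muscle cells or macrophages in these values was not tested.

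**Figure D4:**
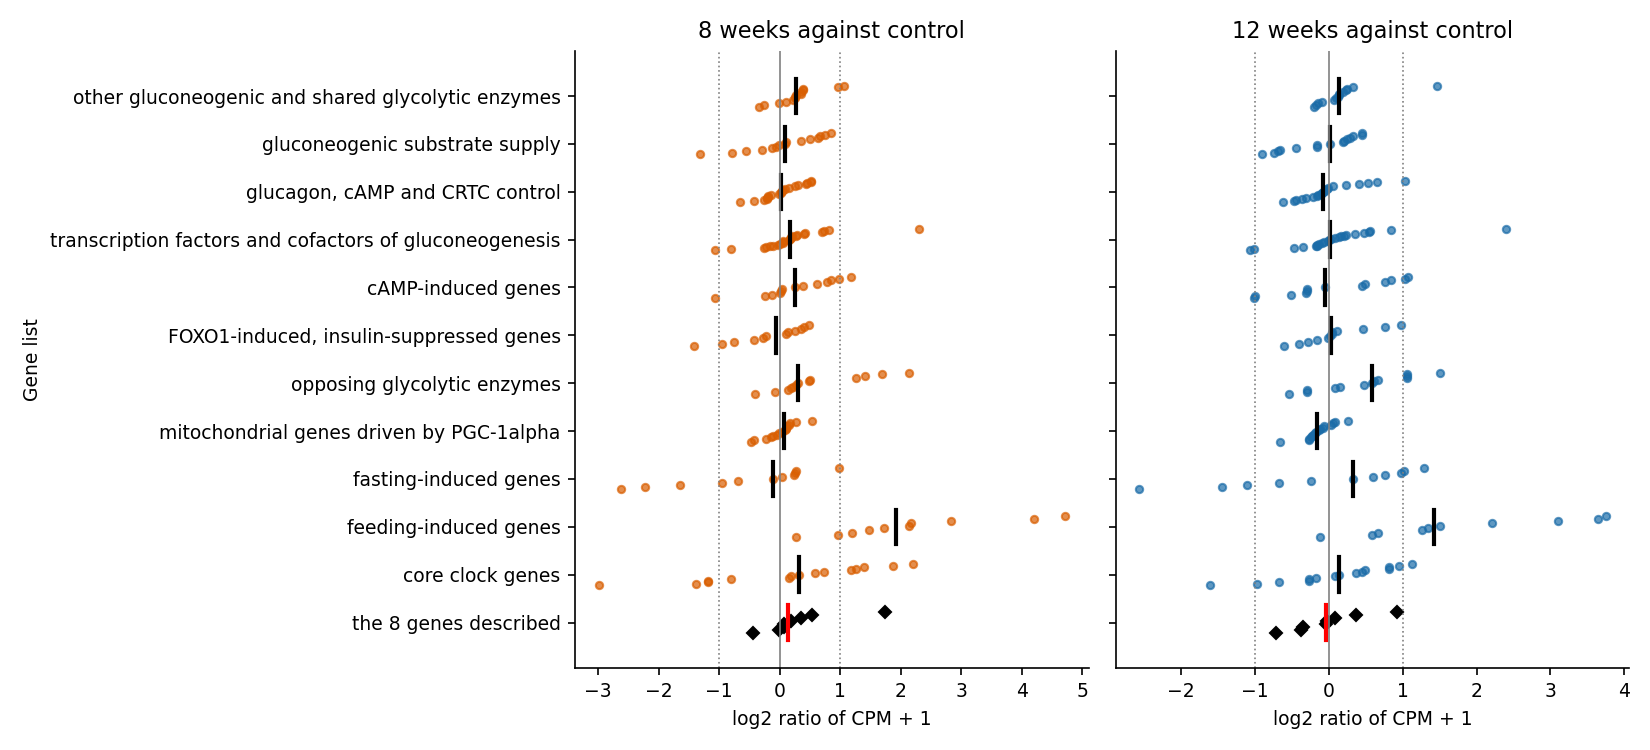
Each point is the log2 ratio of CPM + 1 to the control of 1 gene that passed the filter, by list, at 8 weeks (left) and 12 weeks (right), short vertical bars are medians, and dotted lines mark 2-fold. The 8 genes described have medians of 0.13 and -0.03, and the feeding-induced genes have medians of 1.93 and 1.42. All genes on the list labelled mitochondrial genes driven by PGC-1alpha lie within 2-fold.

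Feeding state and time of day both act on these genes, and neither is stated. Of 10 feeding-induced genes, 8 were higher at 8 weeks and 7 at 12 weeks, with 0 lower (medians 1.93 and 1.42); Scd1, a fatty acid desaturase, had 4.19 and 3.75. Of 11 fasting-induced genes, 0 were higher and 3 lower at 8 weeks, and 2 were higher and 3 lower at 12 weeks (medians -0.12 and 0.33). Acot1, Cyp4a10 and Fgf21 were the lower ones at both times, and Cyp4a14 and Txnip the higher ones at 12 weeks. For 12 weeks against 8 weeks, 4 fasting-induced genes were higher and 0 lower (median 0.51). In that comparison 0 feeding-induced genes were higher and 2 lower (median -0.41). Of 15 core clock genes, 5 were higher and 4 lower at 8 weeks, and 1 higher and 1 lower at 12 weeks (Per2 and Arntl). Arntl had 18.1, 1.40 and 5.29 CPM, and Per2 20.1, 76.6 and 45.3. The part of feeding or of the hour in the values of Pck1, G6pc and Ppargc1a was not tested.

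Skeletal muscle also expresses Ppargc1a, and muscle and macrophage markers moved with it at 8 weeks. The 12 muscle markers summed to 32 counts in control liver, 2896 after 8 weeks and 23 after 12 weeks (2.36, 202.0 and 1.74 CPM), with 7, 0 and 5 of them at 0. Fbp2, the muscle form of the bisphosphatase, had 10, 5 and 2 counts. The 14 Kupffer cell markers, all above 0 in every library, summed to 106, 433 and 333 CPM, and 14 were 2-fold higher at 8 weeks and 13 at 12 weeks. The part of these cells in the Ppargc1a values, at either time, was not tested.

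The members' own cells were checked in the same way. Hepatocyte markers were abundant (8 of 9 symbols found, 46709, 56226 and 58993 CPM summed). Periportal hepatocytes carry most gluconeogenesis. Of 10 periportal markers, 0 were called at 8 weeks and 1 was lower at 12 weeks (Hsd17b13, -1.18), with medians of 0.14 and 0.15. Of 10 pericentral markers, 0 were called at 8 weeks and 2 were lower at 12 weeks, with medians of -0.13 and -0.21. The 2 were Axin2 (-1.235, on 139 and 50 counts) and Lgr5 (-1.234, on 69 and 21 counts). Kidney, gut and fat also express some of these enzymes: 7, 6 and 6 of 8 kidney markers were at 0 in the control, 8-week and 12-week libraries, 3 of 6 gut markers in each, and 4, 3 and 3 of 6 fat markers. Nearly all gut marker counts were those of Fabp2 (1902, 1801 and 1066 counts), whereas Vil1 and Muc2 had 0 to 4. Kidney marker counts were likewise nearly all from Nphs1 (47, 61 and 44). Fat marker counts were nearly all from Cidec (132, 42 and 69), which was past 2-fold lower at 8 weeks (log2 ratio -1.45). In whole liver, fewer cells of a type and less RNA per cell cannot be told apart.

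**Figure D5:**
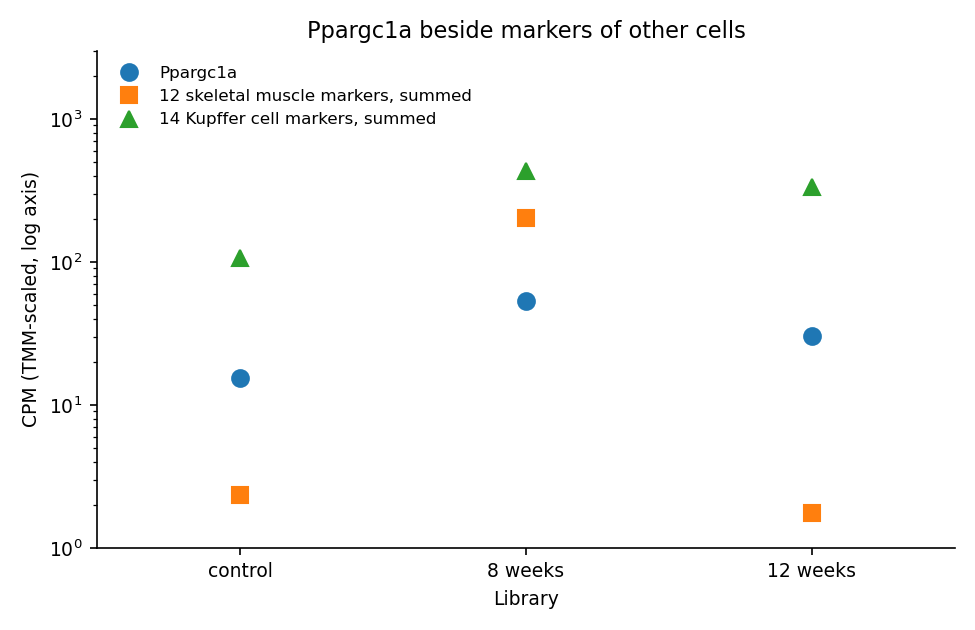
Points give CPM on a log axis in the 3 libraries for Ppargc1a and for the sums of 12 skeletal muscle and 14 Kupffer cell markers. Muscle markers stand at 202.0 CPM at 8 weeks and at 2.36 and 1.74 CPM in the other libraries. Ppargc1a at 12 weeks (30.2 CPM) lies between its control and 8-week values.

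Genes with a like pattern were sought by the distance between pairs of log2 ratios to the control, over 3 libraries. The search covered 8929 protein-coding genes with a mean of at least 5 CPM and no predicted-gene, clone or Rik symbol. Nearest to Ppargc1a were Zfp872 (distance 0.0536), Pfkfb3 (0.140) and Adgre1 (0.159), itself one of the Kupffer cell markers above, and 1 gene lay within 0.1. At 12 weeks Adgre1 (log2 ratio 0.82) was the lowest of the 14 Kupffer cell markers, whose median was 1.52, against 0.93 for Ppargc1a. Nearest to G6pc were Sema5b (0.00535), Adh4 (0.0139) and Rassf5 (0.0310), with 7 genes within 0.1. These distances use CPM + 1, which understates the ratios of low genes, and they leave counting error out. Sema5b (6.34, 6.77 and 3.47 CPM) and Rassf5 (8.4, 8.93 and 4.61 CPM) are such low genes, so their closeness depends on the added 1. Nearest to Pck1 were Sh3bp5 (0.0108), Gsap (0.0173) and Acbd5 (0.0210), with 110 within 0.1. With 3 libraries, likeness of this kind is a description only.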

How the data were processed

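Trizol-extracted total RNA of frozen liver was prepared with a TruSeq kit, per the labels' protocols. Each deposited table holds 1 estimated count for every gene model, unscaled, as its values show: 70.2% to 71.5% of the values above 0 were whole within 0.005. They summed to 13615143, 14258915 and 13263328 in the control, 8-week and 12-week libraries, where 3 counts correspond to 0.221, 0.209 and 0.227 CPM. The submitters' processing notes name TopHat2 2.1.0, Cufflinks 2.2.1.0, mm9 and mm10. The counting program, its use of strand and the role of each build are not given in the sources used here. Start and end of 7 of the 8 genes equalled those of GENCODE M21 (GRCm38), all but Pck2, and no other gene model shared exonic bases with them.

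Counts were rounded and scaled by TMM in edgeR 4.0.16 (R 4.3.3; factors 0.997, 1.005 and 0.998). Log2 ratios used CPM + 1, which understates changes of low genes, and 2-fold is a rule of size rather than significance. Exact Clopper-Pearson intervals of count ratios and Poisson intervals of counts (both 95%) use no added CPM. Intervals of within-library ratios use a normal approximation on log counts. Amplified reads are not independent molecules, which no interval covers. Calls and intervals were run on simulated Poisson counts. Since the intervals assume that same model, the run checks the code only and not the spread between animals or amplification. Alternatives were other scalings (among them DESeq2 1.42.0 size factors), pseudocounts, thresholds and filters. Named genes are all members, at most 4 genes past 2-fold per list (where none was, the 2 with most counts), and the 3 nearest genes of Pck1, G6pc and Ppargc1a; other genes were named after their values were seen. Members and lists were chosen with earlier results of these data known.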

Additional observations from a re-analysis of the deposited data

Results flagged for a closer look

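For 3 of the 8 genes the ratio to the control had opposite signs at 8 and 12 weeks, with counting intervals on opposite sides of 0, as in 2.24% of all genes. These 3 genes have 4953 to 27954 counts, so that small shifts leave 0 outside their intervals. Pck1 had log2 ratios of 0.077 and -0.350, G6pc 0.077 and -0.714, and Fbp1 0.351 and -0.037. With totals without the 100 most abundant genes, the 12-week ratio of Fbp1 was -0.005 and its interval (-0.035 to 0.026) included 0, which ends the separation for that gene; under the other 3 scalings it held for all 3 genes. Both ratios share the 1 control library, and the difference was not tested, since each group has 1 library. The direct 12-week to 8-week log2 ratios were -0.43, -0.79 and -0.39 in the same order.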

How the results depend on the processing

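Counts of members called kept their values under every alternative scaling, pseudocount and filter tried, and changed with the 1.5-fold threshold alone. That threshold gave 1 member higher (Ppargc1a) and 1 lower (G6pc) for 12 weeks against control, and 2 lower (G6pc and Ppargc1a) for 12 weeks against 8 weeks, where 2-fold gave 0. At 3-fold, Ppargc1a was still called at 8 weeks. The share of all genes past 1.5-fold or 3-fold is not given here, so nothing about the group is read from these counts. Of 216 recomputed log2 ratios of the members, 213 moved by less than their counting error. The other 3, Pck1 at both times and Fbp1 at 12 weeks, moved by at most 0.03 without the 100 most abundant genes. The sign changed in 4, all of them Creb1 at 8 weeks. A pseudocount of 5 CPM moved ratios by up to 0.21. Unrounded counts and scaling over the compared libraries alone, both chosen after seeing the data, moved ratios by at most 0.002. Leaving out a library was not possible with 1 per group. Depth limited Pck2, at 19 to 26 counts.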

Other observations

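Within introns of Ppargc1a lie 4 predicted gene models. Gm42614, on the same strand and with no shared exonic bases, had 3, 14 and 4 counts in the control, 8-week and 12-week libraries, and the other 3 had at most 2 counts in any library. Among other forms of the members' enzymes, G6pc3, the widely expressed glucose phosphatase, had 31, 23 and 38 counts, and G6pc2, its islet form, had 1 count in the control and 0 in both treated libraries. Igfbp1, a secreted protein that insulin and FOXO1 control together with G6pc, had 79.1, 93.9 and 134.2 CPM, so its highest value stood in the library with the lowest G6pc. Pdk4, on the same list, had 32.6, 16.3 and 65.5 CPM. Both were within 2-fold of the control by the rule used, on CPM + 1 (log2 ratios 0.25 and 0.76 for Igfbp1, -0.96 and 0.98 for Pdk4). For 12 weeks against 8 weeks, Pdk4 was past 2-fold (log2 ratio 1.94, interval 1.79 to 2.22) and Igfbp1 was not (0.51).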
